A study of Mus musculus with 24 samples.

Results

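Gpr183, the receptor for a dihydroxylated cholesterol metabolite, and the enzymes Ch25h, Cyp7b1 and Hsd3b7, which make and remove its ligand, were followed through 24 mouse RNA-seq libraries in 8 groups of 3. These 4 genes, of 54532 in the count table, were chosen as the receptor and its ligand pathway, and Gpr183 was selected on its measured DMXAA responses, because its transcript was lower in macrophages and higher in dendritic cells under DMXAA in these same data. Its DMXAA responses are therefore given as a description, with no test. Bone marrow was cultured in L929-conditioned medium to give macrophages (BMDMs), or with the cytokines IL-4 and GM-CSF to give dendritic cells (BMDCs). The mice carried a floxed Tmem173 gene, which encodes STING, on both chromosomes and had received tamoxifen in every group. Libraries labelled WT were Tmem173fl/fl, and libraries labelled CRE also carried Lzym-Creert2 (as the design text spells it; Lyz2-Creert2 in the methods), a tamoxifen-inducible Cre driven by the myeloid lysozyme gene Lyz2. Each genotype label was left as control or treated with DMXAA, a mouse STING agonist, at 40 µM by the design text, although the sources used here do not all give the concentration in the same unit. The methods give an age in weeks for mice given tamoxifen but do not tie it to these cultures. Whether the 3 libraries of a group came from separate animals or cultures is not given in the sources used here, so p-values measure the spread between these libraries only.

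In the oxysterol pathway, Ch25h hydroxylates the side chain of cholesterol, Cyp7b1 adds a hydroxyl group to the sterol ring to complete the Gpr183 ligand, and Hsd3b7 oxidises the ligand and so inactivates it. Gpr183, also called EBI2, is a Gi-coupled receptor that guides the migration of B cells, dendritic cells and macrophages along gradients of this ligand. Ch25h is known as an interferon-inducible gene of macrophages, and its product is known to restrain SREBP2, the transcription factor of cholesterol synthesis, and to activate the LXR nuclear receptors.

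The libraries held 15657347 to 18912887 counts over all genes, so that 3 counts, the limit used for a count of 0, corresponded to 0.159 to 0.192 CPM (counts scaled to the total count of the library), for counting error only. The 4 BMDM libraries numbered 3 stood apart from the rest. Their summed level of 7 macrophage markers was 42.2 to 70.6 CPM, against 9420 to 21080 CPM in the 8 BMDM libraries numbered 1 and 2, and their 7 fibroblast markers summed to 12220 to 18790 CPM, against 28.7 to 458 CPM. They are therefore shown apart, and BMDM values rest on 2 libraries a group unless stated. The 9 dendritic cell markers summed to 6220 to 10630 CPM in BMDCs and 177 to 663 CPM in BMDMs numbered 1 and 2. The 2 CRE-labelled BMDC libraries numbered 2 also stood apart, with macrophage markers at 2164 and 2043 CPM in control and DMXAA against 5958 to 8947 CPM in the other 10 BMDC libraries, and the monocyte and macrophage gene Lyz2 at 1296 and 1177 against 4928 to 8108 CPM. Their 7 neutrophil markers summed to 348.5 and 162.1 CPM against 7.126 to 23.13 CPM, and their 5 eosinophil markers to 201.2 and 125.3 against 17.37 to 75.48 CPM. Of the eosinophil markers, the granule gene Epx was at 0 in all CRE-labelled BMDC libraries. CRE-labelled BMDC results are therefore also given without both, an alternative chosen after seeing the data. In BMDCs, same-numbered control and DMXAA libraries of a label deviated together (r of 0.373 to 0.665 over 6 pairs), so paired values are given there too. Across labels, BMDC libraries WT 1 and CRE 2, WT 2 and CRE 3, and WT 3 and CRE 1 deviated together (r of 0.32 to 0.646), while all other cross-label pairs gave -0.494 to 0.244. In control BMDMs, Tmem173 itself was 9.91 to 14.7 FPKM (fragment counts scaled by gene length and library size) in WT and 8.76 to 10.4 FPKM in CRE, and in control BMDCs 28.8 to 51.6 and 19.7 to 36.9 FPKM. Under DMXAA it was 22.8 to 31.9 FPKM in WT and 9.12 to 10.1 FPKM in CRE BMDMs, and 34.6 to 55.3 and 24.3 to 35.1 FPKM in BMDCs. Totals over the whole gene count any reads outside a deleted part, so they do not check the labels.

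All 4 genes are protein-coding, and positions are those of the authors' table in GRCm38. Gpr183 (ENSMUSG00000051212) lay at chr14:121952551-121965195 on the minus strand, within Ubac2, a gene on the opposite strand with which it shared 0 exonic bases. Ch25h (ENSMUSG00000050370) lay at chr19:34473786-34475135 on the minus strand. Cyp7b1 (ENSMUSG00000039519) spanned chr3:18071950-18243338 on the minus strand, and Hsd3b7 (ENSMUSG00000042289) spanned chr7:127800604-127803802 on the plus strand. The start regions of Ch25h and Gpr183, the 2 of the 4 genes with enough counts to compare, are printed here, 250 bases before the RefSeq start of each, in GRCm38.p6, from 5′ to 3′ on the gene's own minus strand (chr19:34475149-34475398 for Ch25h and chr14:121965194-121965443 for Gpr183). Capitals mark the single motif match found in these 2 regions.
Ch25h: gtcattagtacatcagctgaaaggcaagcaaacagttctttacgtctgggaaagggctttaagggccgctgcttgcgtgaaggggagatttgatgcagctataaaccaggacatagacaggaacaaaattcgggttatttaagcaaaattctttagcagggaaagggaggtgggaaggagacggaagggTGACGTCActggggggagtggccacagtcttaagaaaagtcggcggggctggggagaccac
Gpr183: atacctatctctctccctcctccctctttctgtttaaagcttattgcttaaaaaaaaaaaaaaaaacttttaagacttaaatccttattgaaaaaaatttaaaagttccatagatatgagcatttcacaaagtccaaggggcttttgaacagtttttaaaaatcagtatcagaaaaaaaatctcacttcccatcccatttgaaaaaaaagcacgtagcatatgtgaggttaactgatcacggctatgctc

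Motifs were searched on both strands of the 250 bases as the interferon-stimulated response element core (GAAANNGAAA), the STAT site (TTCNNNGAA), the AP-1 site (TGANTCA), the cAMP response element (TGACGTCA) and the NF-kB site. The Ch25h region held 1 cAMP response element, 61 bases before the start, a motif found in 1.55% of 32851 such regions. Neither printed region held the interferon-stimulated response element core, found in 2.98% of regions, the STAT site (7.02%), the AP-1 site (6.75%) or the NF-kB site (7.25%), and the Gpr183 region held none of the 5 motifs. The RefSeq table matched 3 of the 4 genes, without Cyp7b1. The Hsd3b7 region, not printed, held 1 STAT site and 1 NF-kB site, 21 and 189 bases before the start. A match describes the letters of these windows only.

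Gpr183 was high in control macrophages and below 1 FPKM in WT-labelled macrophages under DMXAA. In WT-labelled BMDMs its level was 22.8 and 9.21 FPKM in the control libraries and 0.888 and 0.767 FPKM in the DMXAA libraries. In CRE-labelled BMDMs it was 18.4 and 16.3 FPKM in control and 5.32 and 5.71 FPKM under DMXAA. Both DMXAA groups lay below both control groups, and the CRE-labelled DMXAA libraries lay above the WT-labelled ones with no overlap. The mean under DMXAA was 19.4-fold lower than control in WT-labelled BMDMs and 3.15-fold lower in CRE-labelled BMDMs. The fitted log2 differences were -4.38 ± 0.45 (SE) and -1.68 ± 0.38. Since Gpr183 was chosen for this response, these errors describe the fit and are not a test. In CPM the WT mean was 29.9-fold lower, and the fitted WT value ran from -4.87 to -3.09 over the alternatives, with -3.59 without WT control library 1. The spread between the 2 WT control libraries (16.02 ± 9.63 FPKM, SD, n = 2) was wide, against 17.3 ± 1.44 FPKM in the CRE controls.

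In BMDCs the same transcript was low in control and higher under DMXAA. WT-labelled BMDCs held 3.66, 3.65 and 4.52 FPKM in control libraries 1 to 3 and 10.6, 6.84 and 12.03 FPKM in DMXAA libraries 1 to 3, with no overlap. CRE-labelled BMDCs held 4.37, 6.04 and 3.60 FPKM in control and 10.8, 7.13 and 6.25 FPKM under DMXAA. All 6 DMXAA libraries lay above all 6 control libraries on this scale. The mean was 2.49-fold higher in WT-labelled and 1.73-fold higher in CRE-labelled BMDCs. The fitted log2 differences were 1.29 ± 0.28 and 0.76 ± 0.28 (SE), again as a description of a gene chosen for this response. The second CRE-labelled pair was the exception when scaled to all counts, with 18.5 CPM in control and 17.7 CPM under DMXAA. This is the pair with low macrophage and high neutrophil markers, and without it the fitted CRE difference was 1.07 ± 0.31. Scaling bears on such sizes, since the median gene tested was lower under DMXAA by log2 values of -0.59, -0.24, -0.35 and -0.34 in CPM (WT and CRE BMDMs, then WT and CRE BMDCs) and moved by at most 0.03 in FPKM.

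Over the 8 groups, mean Gpr183 FPKM ran from CRE control BMDMs (17.3) and WT control BMDMs (16.02) through DMXAA-treated BMDCs (9.83 in WT, 8.06 in CRE) and CRE BMDMs under DMXAA (5.51) to control BMDCs (4.67 in CRE, 3.94 in WT) and WT BMDMs under DMXAA (0.828). Neighbours in this order overlapped in their libraries, except CRE BMDCs and CRE BMDMs under DMXAA, and control WT BMDCs and WT BMDMs under DMXAA. The 4 fibroblast-like BMDM libraries numbered 3 held 0 Gpr183 counts in 3 libraries and 1 count in the WT-labelled DMXAA library. Ubac2, which surrounds Gpr183, stayed between 401 and 877 counts in every library. Summed B cell markers were also lower under DMXAA than in control in every group, at 2.68 to 4.60 against 7.97 to 13.5 CPM in BMDMs and 3.04 to 6.14 against 8.08 to 15.7 CPM in BMDCs. At least 4 of these 6 markers were above 0 in each group, with Ms4a1 and Pax5 at 0 in WT control BMDMs, and their part in the Gpr183 values was not tested. Summed eosinophil markers were lower under DMXAA as well in each same-numbered pair of BMDCs, at 54.3 to 75.48 against 17.37 to 25.74 CPM with the WT label and 58.42 to 201.2 against 19.79 to 125.3 CPM with the CRE label. In BMDMs numbered 1 and 2 they were 14.33 and 18.3 CPM in control against 2.246 and 6.193 CPM under DMXAA with the WT label. With the CRE label they were 28.36 and 30.99 against 11.12 and 11.36 CPM. In each of these BMDM groups Epx, a defining granule gene, was at 0, and so were Prg2, Il5ra or both. In BMDCs Epx was at 0 in every group but WT DMXAA. The part of the eosinophil markers was not tested either. Macrophage markers in BMDMs summed to 11280 to 13070 CPM under DMXAA against 18990 to 21080 CPM in control with the WT label. With the CRE label they summed to 9420 to 9551 against 12380 to 12520 CPM. Leukocyte and neutrophil sums were lower in BMDMs too, plasmacytoid dendritic cell sums were higher, and the part of these markers was not tested. In CPM the median gene tested was lower as well, as given above. In these bulk libraries, fewer cells with a transcript and less transcript per cell cannot be told apart.

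**Figure D1:**
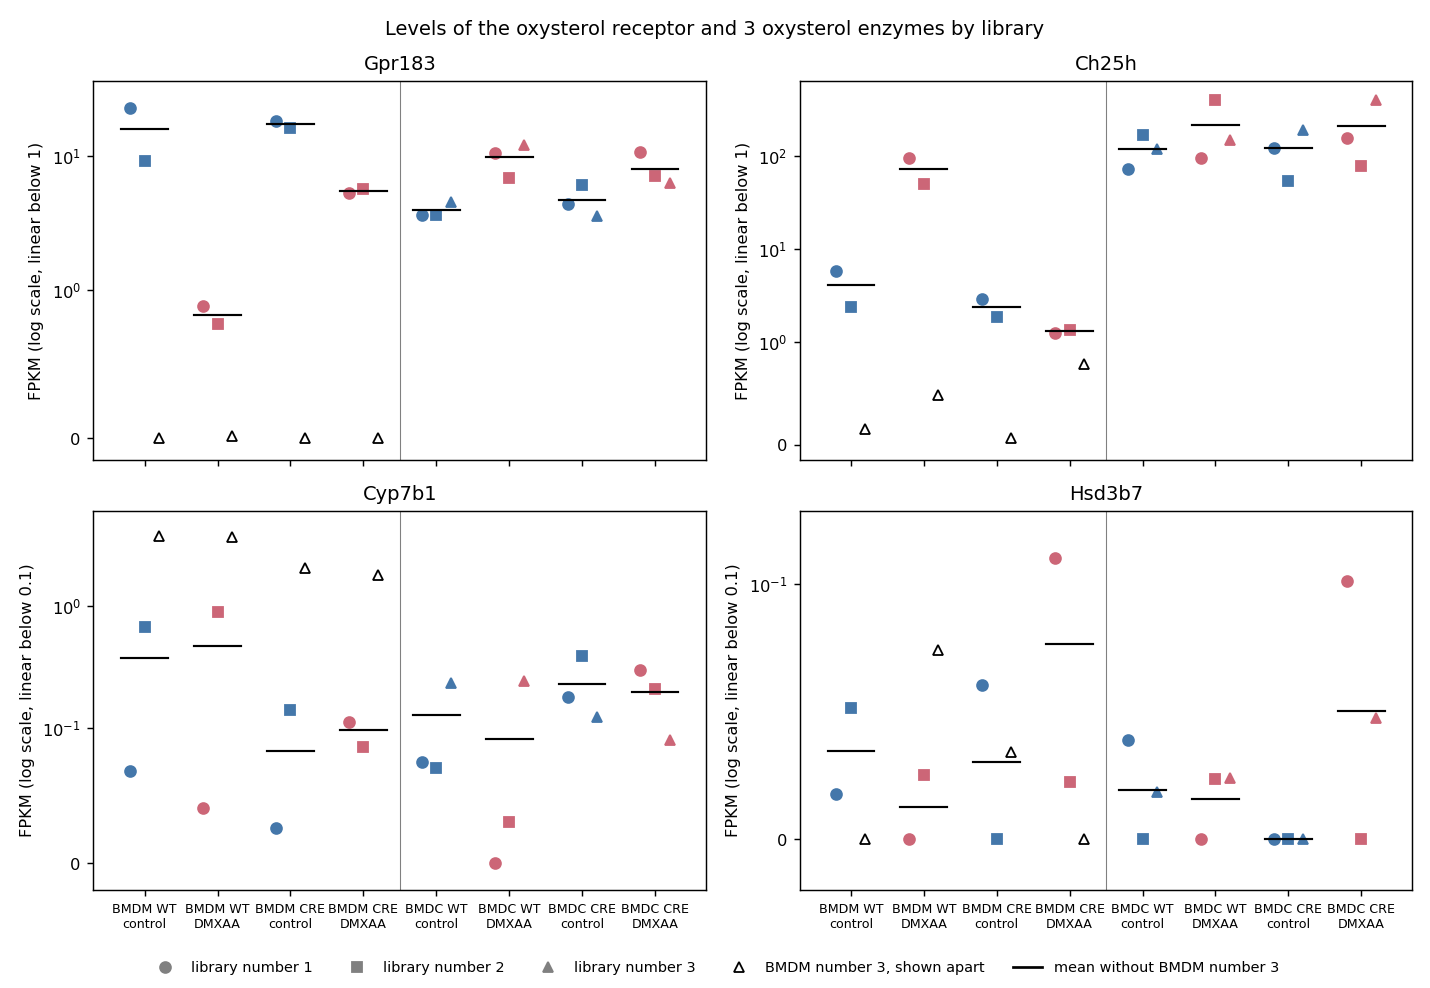
Deposited FPKM of the 4 genes in each of the 24 libraries (y axis, log scale with a linear part near 0 as labelled) by group (x axis). Blue marks are control and red marks DMXAA, open triangles are BMDM libraries numbered 3, and bars are means without those; Gpr183 lies at 0.767 and 0.888 FPKM in WT BMDMs under DMXAA, where Ch25h lies at 49.5 and 95.2 FPKM.

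Ch25h, the enzyme that opens the pathway, moved the other way in WT-labelled macrophages. Its level was 5.77 and 2.39 FPKM in WT control BMDMs and 95.2 and 49.5 FPKM in WT BMDMs under DMXAA, a 17.7-fold higher mean (11.3-fold in CPM) with no overlap. In CRE-labelled BMDMs it was 2.86 and 1.87 FPKM in control and 1.25 and 1.33 FPKM under DMXAA, so that both treated libraries lay below both controls. Ch25h rose in WT-labelled BMDMs (log2 fold change 4.04 ± 0.50, SE, adjusted p = 0.00126 by edgeR's quasi-likelihood test), in a comparison where 39.2% of the 11569 genes tested were called, 18.4% higher and 20.7% lower. The value ran from 3.51 to 4.80 when 1 library was left out, and 4.80 was the value without WT control library 1. The difference in CRE-labelled BMDMs, -0.89 ± 0.54, did not pass (adjusted p = 0.335 by edgeR), where 10% of genes were called, 7.28% higher and 2.72% lower. It passed with the block within labels (-0.88, adjusted p = 0.0446), with no filter on low values (-0.87, 0.0466) and with only these 4 libraries in the fit (-0.88, 0.0173). Those edgeR fits called 2920 of 11569, 2120 of 23641 and 6186 of 10699 genes, in the same order.

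The genotype labels differed in Ch25h under DMXAA and not detectably without it. Ch25h was lower in CRE-labelled than in WT-labelled BMDMs under DMXAA (-5.75 ± 0.56, adjusted p = 0.00179 by edgeR), where 19.2% of genes were called. In control BMDMs the difference was -0.82 ± 0.49 (adjusted p = 0.769), where 0.0432% of genes were called. The DMXAA response itself differed between labels (interaction -4.93 ± 0.72, adjusted p = 0.0224), where 3.66% of genes were called. This interaction no longer passed when any 1 of 5 libraries was left out, with adjusted p of 0.0501 without WT DMXAA 1, 0.145 without CRE control 1, 0.165 without CRE DMXAA 1, 0.145 without CRE control 2 and 0.160 without CRE DMXAA 2. The values in those fits were -4.40, -4.62, -4.90, -5.23 and -4.98 in the same order, and the fits called 217, 0, 0, 2 and 0 of all genes. Each leaves a group with 1 library, whose spread is taken from the other groups.

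The fibroblast-like libraries numbered 3 differed from this pattern. Ch25h was 0.156 FPKM in the WT control and 0.488 FPKM in the WT DMXAA library, and 0.070 FPKM in the CRE control and 0.787 FPKM in the CRE DMXAA library, so that both labels were higher under DMXAA at levels below every other library. With all 12 BMDM libraries in the fit, the Ch25h response of WT-labelled BMDMs was 4.10 with an adjusted p of 0.517 by edgeR, and 0% of 12379 genes were called at all, although 1158 had an unadjusted p under 0.05; DESeq2 and limma were run on the 8 libraries only.

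**Figure D2:**
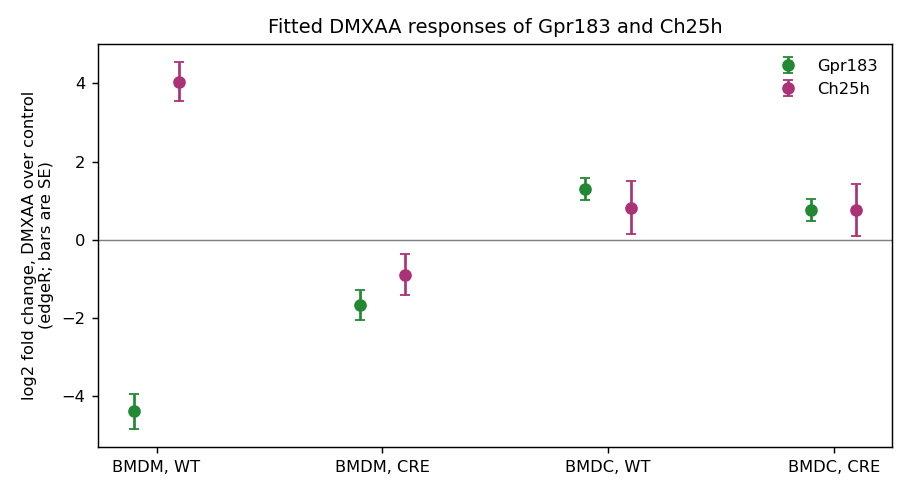
Fitted log2 fold change of DMXAA over control (y axis) for Gpr183 and Ch25h in the 4 cell type and label combinations (x axis), from edgeR with 2 libraries a group in BMDMs and 3 in BMDCs; bars are standard errors. The 2 genes lie on opposite sides of 0 in WT BMDMs (-4.38 and 4.04) and on the same side in the other 3 combinations. Gpr183 was chosen for these responses, so its bars are not a test.

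Ch25h in BMDCs was already high without DMXAA. Control libraries 1 to 3 held 71.6, 166 and 119 FPKM with the WT label and 122, 53.8 and 190 FPKM with the CRE label. Under DMXAA the same numbers held 95.5, 394 and 149 FPKM with the WT label and 156, 76.8 and 398 FPKM with the CRE label. Every DMXAA library was above its same-numbered control in FPKM, but the libraries of one group differed from each other by more than the treatment moved them, and the groups overlapped. Without pairing, the log2 fold change was 0.82 ± 0.68 in WT-labelled BMDCs (adjusted p = 0.408 by edgeR, 95% interval -0.50 to 2.15), where 32.2% of 12126 genes were called, 17% higher and 15.2% lower. In CRE-labelled BMDCs it was 0.76 ± 0.67 (adjusted p = 0.475), where 25.4% of genes were called, 14% higher and 11.4% lower. With the replicate number as a block within each label, the values were 0.64 ± 0.20 (adjusted p = 0.0225) and 0.62 ± 0.20 (adjusted p = 0.0289). With this block, edgeR called 5911 and 5181 of 12126 genes. Without both CRE libraries numbered 2, the CRE values were 0.81 (adjusted p = 0.406) unpaired and 0.69 (adjusted p = 0.0347) with the block. There edgeR called 3805 and 5289 genes.

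Scaled to all counts, the Ch25h difference rested on 1 pair in each label. WT-labelled BMDCs held 99.8, 254 and 187 CPM in control and 103, 457 and 180 CPM under DMXAA, and CRE-labelled BMDCs held 192, 77.2 and 287 CPM in control and 187, 89.2 and 460 CPM under DMXAA. Only WT pair 2 and CRE pair 3 were more than 1.5-fold higher. These are libraries that deviated together across labels, and the WT 3 and CRE 1 pairs, and the WT 1 and CRE 2 pairs, also lay next to each other in level. Without the second WT DMXAA library the unpaired WT log2 fold change was 0.02, and without the third CRE DMXAA library the CRE value was -0.10.

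**Figure D3:**
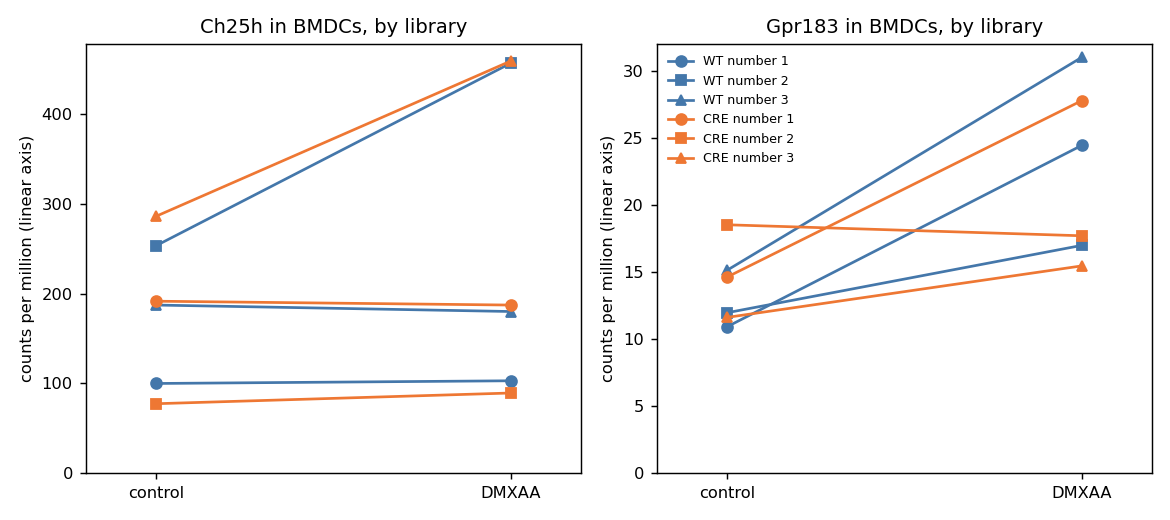
Ch25h (left) and Gpr183 (right) in CPM on a linear y axis in the 6 BMDC pairs, with a line from each control library to the same-numbered DMXAA library (x axis). Blue lines are WT and orange lines CRE; for Ch25h only WT pair 2 (254 to 457 CPM) and CRE pair 3 (287 to 460 CPM) climb steeply.

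No difference between the genotype labels was detected for Ch25h in BMDCs. CRE over WT was 0.04 ± 0.67 in control (adjusted p = 1 by edgeR) and -0.02 ± 0.67 under DMXAA (adjusted p = 1, 95% interval -1.33 to 1.297), and the interaction was -0.06 ± 0.95 (adjusted p = 1, interval -1.92 to 1.799). Without both CRE libraries numbered 2 they were 0.40, 0.38 and -0.02, with adjusted p-values of at least 0.998. These intervals do not show that the labels were alike, and the fits do not use the closeness of libraries across labels, for which no pairing was fitted. In each of these 3 comparisons 0% of genes were called by edgeR, with 99, 108 and 60 genes at an unadjusted p under 0.05, while DESeq2 called 0, 0 and 1 genes and limma called 0, 0 and 0. Fitted differences between labels for Gpr183, given without a test, were 0.25 in control and -0.28 under DMXAA in BMDCs, and 0.08 and 2.78 in BMDMs.

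The cell types differed in Ch25h at rest. Control WT-labelled BMDCs exceeded control WT-labelled BMDMs by a log2 value of 4.81 ± 0.88 (adjusted p = 0.000706 by edgeR over 13368 genes), where 28.5% of genes were called. For Gpr183 the fitted difference was -2.08, the opposite direction. For the DMXAA response of Ch25h, WT-labelled BMDCs minus WT-labelled BMDMs gave -3.19 ± 1.03 on the log2 scale, which did not pass (interaction adjusted p = 0.134 by edgeR), where 2.61% of genes were called. It passed with the block within labels, at -3.42 (adjusted p = 9.2e-05), and without the second WT BMDC DMXAA library, at -4.07 (adjusted p = 0.0432). Those edgeR fits called 1465 and 344 of 13368 genes. Mean FPKM of Ch25h was 213 and 210 in WT and CRE BMDCs under DMXAA, 122 and 119 in CRE and WT control BMDCs, 72.4 in WT BMDMs under DMXAA, 4.08 and 2.36 in WT and CRE control BMDMs and 1.29 in CRE BMDMs under DMXAA. Neighbours overlapped except at the steps below 72.4 and below 2.36 FPKM.

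Part of Ch25h is shared with another gene. In GENCODE M21, 159 of its 1387 exonic bases (11.5%) also lie in exons of Gm26902, a long noncoding RNA on the opposite strand, and the library kit does not mark strand, so reads there cannot be assigned to one of the 2 genes. Gm26902 held 0 to 103 counts a library, with 15 and 7 counts in WT control BMDMs and 31 and 12 under DMXAA, against 2419 Ch25h counts in those 2 DMXAA libraries together.

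Cyp7b1, which completes the ligand, was close to the limit of detection in both cell types. BMDMs numbered 1 and 2 held 1 to 31 counts (0.0258 to 0.895 FPKM), and BMDCs held 0 to 16 counts (0 to 0.391 FPKM). The 2 highest of these were the WT-labelled BMDM libraries numbered 2, with 31 counts in control and 28 under DMXAA, while the other 6 BMDM libraries held 1 to 6 counts. Summed fibroblast markers in the same 2 libraries were 458 and 422 CPM, against 28.7 to 63.0 CPM in the other 6, with every one of the 7 markers above 0, and their part in the Cyp7b1 value was not tested. The fibroblast-like BMDM libraries numbered 3 held 94 to 196 counts. Their levels were 3.81 and 3.71 FPKM in the WT control and DMXAA libraries and 2.05 and 1.81 FPKM in the CRE ones, the only 4 of 24 libraries at or above 1 FPKM.

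Hsd3b7, which inactivates the ligand, was listed with 0 to 6 counts a library, 33 counts in all 24 libraries together, and 0 in 10 of them. In 21 libraries it did not exceed 3 counts, so no difference between groups was detectable at these counts. The value is also uncertain, because in GENCODE M21 only 23 of its 2769 exonic bases lie in no other gene. Gm49388, a protein-coding model on the same strand, shares 1717 of them and was listed with 0 to 1 counts, and the opposite-strand 9430064I24Rik shares 1729 and was listed with 0 to 9 counts. Reads over shared exons can be left out of all of these genes by the counting.

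Neither Cyp7b1 nor Hsd3b7 passed the minimum of 1 FPKM used in the tests. In fits of all genes with no such minimum neither was called in any of the 12 comparisons, and the lowest adjusted p of Cyp7b1 was 0.141 by edgeR (CRE over WT under DMXAA in BMDMs, log2 difference -2.16), a comparison in which the WT-labelled library numbered 2 held 28 of the 29 WT counts. Of the 3 enzymes, then, only Ch25h entered the main tests. It was called in 4 of 12 comparisons, in which 39.2%, 19.2%, 3.66% and 28.5% of all genes tested were called.

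Some other genes correlated with the receptor or with Ch25h over the 20 libraries without BMDM number 3, by Pearson's r of log2(FPKM + 1) among 8461 expressed genes. These r values are descriptions, since the points share groups and scaling. For Gpr183 they were Dtx4 (r = 0.856), Ptger4 (0.835), Mfsd6 (0.820), Cyb5b (0.803) and Asap1 (0.777). Mean Dtx4, for example, was 16.8 FPKM in WT control BMDMs and 4.85 FPKM under DMXAA, and 10.8 and 17.7 FPKM in WT BMDCs. Mean Ptger4 and Mfsd6 were also higher under DMXAA in WT BMDCs. Cyb5b (29.3 in control and 29.1 FPKM under DMXAA) and Asap1 (15.3 and 15.1 FPKM) were not. For Ch25h they were Lcp2 (0.978), Tnfaip8l3 (0.954), Lrrc8c (0.946), Socs1 (0.943) and Cst7 (0.943). Mean Socs1, a suppressor of cytokine signalling, was 0.913 FPKM in WT control BMDMs and 62.9 FPKM under DMXAA, 0.584 and 3.87 FPKM in CRE BMDMs, and 56.2 and 122.7 FPKM in WT BMDCs. Mean Lcp2, Lrrc8c and Cst7 were also higher under DMXAA in WT BMDCs, while Tnfaip8l3 was 6.3 FPKM in control and 5.25 FPKM under DMXAA there.

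The genes around the pathway were counted in 5 lists, each beside the shares of all tested genes called higher and lower, which were 18.4% and 20.7% in WT BMDMs, 7.28% and 2.72% in CRE BMDMs, 17% and 15.2% in WT BMDCs and 14% and 11.4% in CRE BMDCs. These shares are large, and the counts of a list are descriptions beside them. In BMDMs, a fit with 1 library left out has a group of 1 library. In CRE BMDMs the calls then fell over all genes too, so a smaller count there is not particular to a list. SREBP2 target genes build and import cholesterol. Of 9 tested genes, 7 fell and 0 rose in WT BMDMs, 1 fell in CRE BMDMs, 4 fell in WT BMDCs and 1 fell in CRE BMDCs. The list medians were -1.20, -0.45, -0.77 and -0.55 on the log2 scale, against medians of -0.08, -0.01, 0.01 and -0.01 over all genes. In WT BMDMs, Stard4, a sterol carrier, fell by 2.54 ± 0.32 (adjusted p = 0.00134 by edgeR) and Sqle, squalene epoxidase, fell by 2.44 ± 0.25 (adjusted p = 0.000601). The synthesis enzymes Idi1 and Cyp51 fell by 1.88 and 1.79 there, and Cyp51 fell by 1.61 in WT BMDCs and by 0.86 in CRE BMDMs. When 1 library was left out, 6 to 8 were called lower in WT BMDMs, 0 in CRE BMDMs, 1 to 4 in WT BMDCs (1 without control library 1 or DMXAA library 2) and 0 to 3 in CRE BMDCs, where 3 were called without both libraries numbered 2. With the block within labels, 5 were called lower and 1 higher in each label of BMDCs. That block called 2980 of 12126 genes higher and 2931 lower in WT BMDCs, and 2636 and 2545 in CRE BMDCs. In CRE BMDCs without both libraries numbered 2, edgeR called 2029 genes higher and 1776 lower. Counts of the lists below in these fits stand beside those numbers.

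Of the other oxysterol and bile acid enzymes, 5 of 14 were testable in BMDMs and 7 in BMDCs. Cyp27a1, which hydroxylates the cholesterol side chain at another carbon, rose by a log2 value of 1.18 ± 0.19 in WT BMDMs (adjusted p = 0.00352 by edgeR), 2.26 ± 0.25 in WT BMDCs (adjusted p = 5.8e-05) and 1.91 ± 0.24 in CRE BMDCs (adjusted p = 0.000215). In CRE BMDMs its value was -0.21 ± 0.19 (adjusted p = 0.528), and its response differed between labels in BMDMs (interaction -1.38 ± 0.27, adjusted p = 0.0443). This interaction did not pass when CRE control library 1 or either CRE DMXAA library was left out. Without both libraries numbered 2, 1 was called higher and 2 lower in CRE BMDCs, and with the block within labels 3 were lower. Dhcr7, which reduces the last sterol intermediate to cholesterol, fell by 2.36, 1.92 and 1.49 in the same 3 combinations. Soat1, which esterifies cholesterol, fell by 0.68 in WT BMDCs (adjusted p = 0.046), and the 2 enzymes called lower there became 1 without any 1 of those 6 libraries. None of the 5 passed in CRE BMDMs.

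Sterol receptors and binding proteins, 16 of 22 testable, were called in both directions. In WT BMDMs 2 rose and 5 fell, in WT BMDCs 4 rose and 3 fell, in CRE BMDCs 2 rose and 1 fell, and in CRE BMDMs 0 were called. Nr1h3, which encodes the nuclear receptor LXRα, rose by 1.93 ± 0.30 in WT BMDMs (adjusted p = 0.00306 by edgeR) and by 1.23 ± 0.33 in WT BMDCs (adjusted p = 0.0155). Nr1h2, which encodes LXRβ, rose by 0.74, 0.59 and 0.56 in WT BMDMs, WT BMDCs and CRE BMDCs. The SREBP retention factor Insig1 fell by 0.84 in WT BMDMs, and Insig2 rose by 1.37 and 0.89 in WT and CRE BMDCs. The smaller falls depended on scaling, since 3 rather than 5 genes were lower in WT BMDMs and 1 rather than 3 in WT BMDCs with median-of-ratios scaling. When 1 library was left out, 2 to 4 were called higher and 3 to 7 lower in WT BMDMs, 2 to 3 and 0 to 2 in WT BMDCs, and 1 to 4 and 0 to 2 in CRE BMDCs, where 4 and 0 were called without both libraries numbered 2. With the block within labels, 6 were called higher and 5 lower in WT BMDCs, and 5 and 3 in CRE BMDCs. That fit also called more of all genes than the main fit, as given above.

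Of the LXR target genes, 13 of 16 were testable. Of these, 4 rose and 3 fell in WT BMDMs, 1 rose and 1 fell in CRE BMDMs, 2 rose and 3 fell in WT BMDCs, and 2 rose and 2 fell in CRE BMDCs, with list medians of 0.01, -0.07, 0.03 and 0.03. The sterol exporter Abcg1 rose by 2.42 ± 0.30 in WT BMDMs (adjusted p = 0.00124 by edgeR) and by 1.75 ± 0.29 in CRE BMDMs (adjusted p = 0.0145). The fatty acid enzymes Scd2 and Fasn fell by 3.54 and 2.33 in WT BMDMs, by 3.52 and 1.99 in WT BMDCs and by 3.11 and 1.67 in CRE BMDCs. Mertk, a receptor for apoptotic cells, rose by 2.13 and 2.33 in WT and CRE BMDCs. When 1 library was left out, 3 to 4 LXR targets were called higher and 1 to 4 lower in WT BMDMs (1 lower without control library 1), 0 and 0 in CRE BMDMs, 2 and 2 to 3 in WT BMDCs, and 2 to 3 and 1 to 2 in CRE BMDCs, where 3 and 2 were called without both libraries numbered 2.

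Genes that carry or end Gi receptor signals were the last list. Of 21 tested in BMDMs, 4 rose and 5 fell with the WT label and 2 rose and 2 fell with the CRE label; of 20 tested in BMDCs, 4 rose and 7 fell with the WT label and 3 rose and 7 fell with the CRE label. Arrb1, a beta-arrestin that uncouples and internalises receptors, fell in all 4 combinations, with log2 fold changes of -3.01 ± 0.21 in WT BMDMs (adjusted p = 0.000125 by edgeR), -1.08 ± 0.19 in CRE BMDMs (adjusted p = 0.0185), -1.798 ± 0.25 in WT BMDCs (adjusted p = 0.000264) and -1.39 ± 0.24 in CRE BMDCs (adjusted p = 0.00172). Its response differed between labels in BMDMs (interaction 1.93, adjusted p = 0.0218 by edgeR). Arrb1 did not pass for this interaction when any CRE-labelled BMDM library was left out. In CRE BMDMs its call rests on 2 libraries a group. Leaving out 1 library left a group with 1, and few genes of any kind were then called lower. Those fits therefore say little about Arrb1 itself. Gnb4, a G protein beta subunit, rose by 3.48, 2.26, 1.72 and 1.34 in these 4 combinations. Grk5, a kinase that marks active receptors for arrestin, fell by 1.51 and 1.26 in WT and CRE BMDCs. When 1 library was left out, 4 to 6 of the list were called higher and 4 to 6 lower in WT BMDMs, 0 to 1 and 0 to 1 in CRE BMDMs, 3 to 4 and 7 in WT BMDCs, and 1 to 3 and 5 to 7 in CRE BMDCs, where 4 and 7 were called without both libraries numbered 2 and 5 and 8 with the block within labels.

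**Figure D4:**
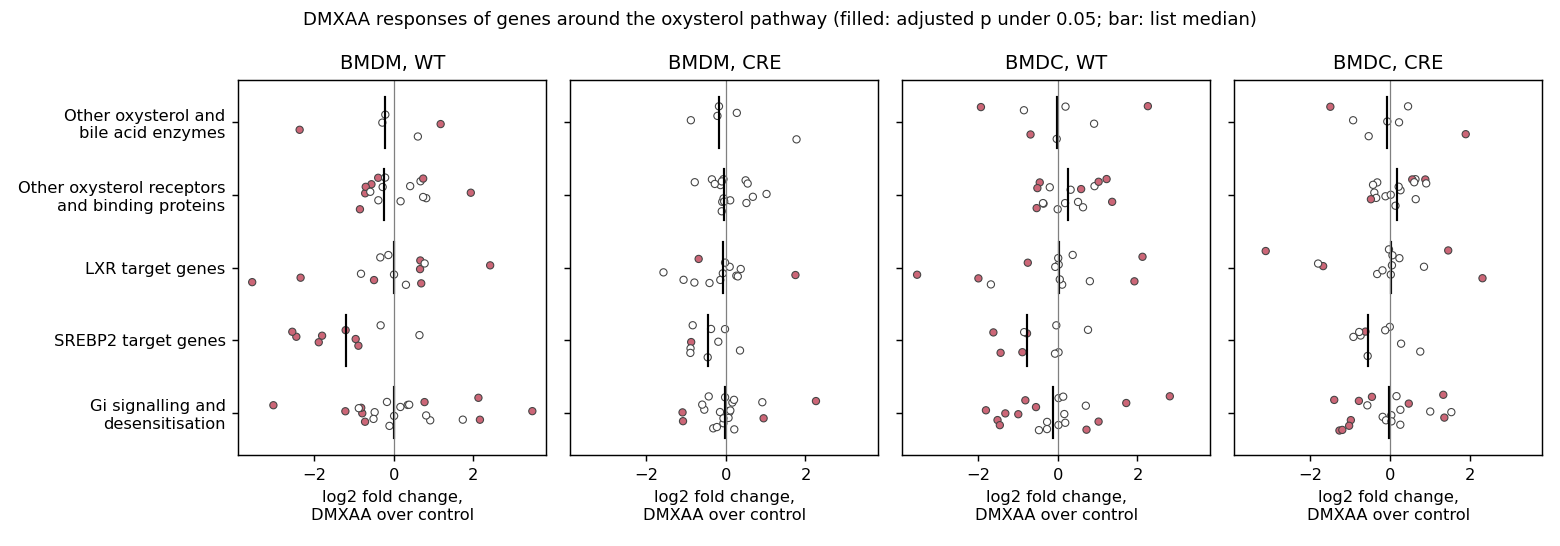
Log2 fold change of DMXAA over control (x axis, edgeR) for the tested genes of the 5 lists (rows) in each cell type and label (panels); filled points passed an adjusted p of 0.05, open points did not, and bars are list medians. The SREBP2 target list has its median at -1.20 in WT BMDMs, the lowest of the 20 medians shown.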

How the data were processed

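RNA was measured by poly(A) RNA-seq in 24 libraries. The authors deposited raw counts per gene and FPKM values of all libraries in 1 table; the submitters' processing notes name CASAVA 1.8, fastp, HISAT2 2.0.5, featureCounts 1.5.0-p3, DESeq2 1.20.0 and GRCm38. The deposited FPKM is scaled by gene length and an effective library size. Group means and the authors' fold changes and p-values, also in the table, were not used.

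The 4 genes, the lists and the treatment of BMDM number 3 were chosen with earlier results of these data known. Counts were tested with edgeR 4.0.16 (quasi-likelihood, TMM, Benjamini-Hochberg adjustment over all genes tested, threshold 0.05) on genes with at least 1 FPKM in as many libraries as the smallest group. Standard errors are the fold change divided by the square root of edgeR's F statistic. CPM was computed from the deposited counts and their totals per library. The BMDM fit had 8 libraries, the BMDC fit 12 and the cell type fits 20. Alternatives used DESeq2 1.42.0, limma 3.58.1 on log2(FPKM + 1) and log2(FPKM + 0.1), other filters and scaling, blocks, and left-out libraries. Scripts were tested on simulated data. From each list the text names up to 4 called genes with the largest fold change in a comparison. Same-numbered control and DMXAA libraries correlated at 0.373 to 0.665 in BMDCs. In BMDMs, with 2 pairs a label, the range was 0.033 to 0.638. The main fits used no pairing in either cell type, and a block within labels entered only as an alternative. Of 54409 genes in both, 98.26% had the same coordinates in the table and GENCODE M21, which gave the exon overlaps. The start-region and motif search used RefSeq.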

Additional observations from a re-analysis of the deposited data

Results flagged for a closer look

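Ch25h was marked because its DMXAA response differed between the genotype labels in BMDMs, with an interaction of -4.93 on the log2 scale (adjusted p = 0.0224 by edgeR, 2 libraries a group) and all 4 WT and CRE DMXAA libraries apart. Cyp7b1 was marked in the 4 BMDM libraries numbered 3, which entered no main comparison, at 3.81 FPKM in WT control, 3.71 in WT DMXAA, 2.05 in CRE control and 1.81 in CRE DMXAA, against 0.0258 to 0.895 FPKM in the other 8 BMDM libraries.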

How the results depend on the processing

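The rise of Ch25h in WT BMDMs and its lower level in CRE than WT BMDMs under DMXAA passed in every alternative except the 2 that used all 12 BMDM libraries. There the number of the 3 enzymes called went from 1 to 0 for both and for the interaction, with Ch25h at 4.10 (adjusted p = 0.517), -5.45 (1) and -4.64 (1) by edgeR, and at 3.77 (0.0556), -3.95 (0.209) and -3.15 (0.999) with a term for number 3. With that term Ch25h in CRE BMDMs reversed to 0.61. Leaving out 1 library left 0 to 1 enzymes called for the interaction in BMDMs and 0 to 1 for the cell type interaction, and changed no count elsewhere. In CRE BMDMs 0 enzymes became 1 with no filter (-0.87, adjusted p = 0.0466), with the replicate block within labels (-0.88, 0.0446) and with only the groups compared (-0.88, 0.0173). The block raised the count from 0 to 1 in WT and CRE BMDCs as well. For the cell type interaction 0 became 1 with no filter (-3.18, 2.55e-16), DESeq2 (-3.27, 0.0161) and the block (-3.42, 9.2e-05).

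In the BMDC comparisons of labels, Ch25h had no stable sign. It ran from -0.89 to 0.79 under DMXAA, from -0.42 to 0.40 in control and from -0.93 to 0.75 for the interaction when 1 library was left out, and limma gave -0.0579 in control with a pseudocount of 1 and -0.0594 with 0.1, with adjusted p-values of at least 0.982. Without both CRE BMDC libraries numbered 2, chosen after seeing the data, it was 0.38 under DMXAA and -0.02 for the interaction (0.0385 with the block), and the block again raised the CRE count from 0 to 1. Ch25h in CRE BMDCs ran from -0.10 to 1.23, and Gpr183 in control BMDMs (CRE over WT) from -0.42 to 0.86. Counts over all genes moved by over 1.5 times: 4531 called in WT became 0 with all 12 libraries and 935 with the term, 1157 in CRE became 0, 174, 1908 with DESeq2 and 2920 with the block, and 424 for the interaction became 0, 0, 1195 and 1702. CRE against WT in BMDMs went from 2227 to 0 and 14 under DMXAA, and from 5 to 0, 0 and 126 with DESeq2 in control. With the block, 3904 in WT BMDCs became 5911, 3084 in CRE BMDCs became 5181 and 349 for the cell type interaction became 1465 (738 with DESeq2, 527 with limma). With all 24 libraries that count was 0, and 3812 for control cell types became 1169. With only the groups compared, the counts were 1697 in WT BMDMs, 6186 in CRE BMDMs, 0 for the labels in control BMDMs, 1758 in CRE BMDCs and 211 for the cell type interaction. With no filter they were 2120 in CRE BMDMs, 3630 and 700 for the labels under DMXAA and in control, 1342 and 836 for the BMDM and cell type interactions, and 2 each for the labels under DMXAA and the interaction in BMDCs. Leaving out 1 library gave 248 to 321 in CRE BMDMs, 313 and 316 for the labels under DMXAA without CRE DMXAA 2 and 1, 2 to 215 in control BMDMs, 0 to 1347 for the BMDM interaction and 134 to 549 for the cell type interaction, and limma gave 11 and 8 in control BMDMs. The cause was not tested. Cyp7b1 and Hsd3b7 had few counts and no test in the main comparisons. Strand was not marked, so overlapping genes could not be separated.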
